A study of Mus musculus with 8 samples.

Results

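The mouse Schlafen family was followed through sorted blood progenitors of wild-type and ACKR1-deficient mice. Its members here were 7 genes, Slfn1, Slfn2, Slfn3, Slfn4, Slfn5, Slfn8 and Slfn9, found as the non-control probes whose RefSeq transcript belongs to one of them. They were read by 9 of the 55681 probes on the array, and they are 7 of the 20145 genes that could be named. Slfn8 and Slfn9 had 2 probes each and the others 1. Of the 7 genes, 5 passed the filter on dim probes, under which some group has the probe well above background on each of its 2 arrays. Slfn1 and Slfn5 did not pass and are described with the limits this sets.

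Schlafen proteins share a fold that binds transfer and ribosomal RNA and, in several members, cuts it. The short members Slfn1 and Slfn2 hold little more than this domain, the intermediate members Slfn3 and Slfn4 carry an added linker domain, and the long members Slfn5, Slfn8 and Slfn9 end in a helicase-like domain. Many are induced by interferon, and the family is known from blood cells: Slfn2 keeps resting T cells and monocytes in quiescence, and Slfn4 is known as a myeloid gene that interferon and Toll-like receptor signals induce.

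ACKR1 is an atypical receptor that binds chemokines without signalling through G proteins. Bone marrow came from female mice 12 weeks old, either lacking ACKR1 on a C57Bl/6J background reached by backcrossing, or their wild-type littermates, since the line was maintained from heterozygous parents. The sorted populations were LSK cells (lineage-negative, positive for Sca1 and cKit), which hold stem cells and multipotent progenitors, and GMP cells (lineage-negative and Sca1-negative, positive for cKit, CD34 and CD16/32), the granulocyte-monocyte progenitors. Each of the 4 combinations of population and genotype had 2 arrays with 1 colour, 8 in all, and the labels do not say whether the arrays of a group came from separate animals, so p-values may measure technical spread. A level is the log2 signal of a probe over the 75th percentile of its array, and levels of different probes are not set against each other. As these are bulk samples, fewer cells of a type and less RNA per cell cannot be told apart.

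The arrays differed in strength. On the array labelled deficient LSK replicate 2, 34.3% of spots were well above background, against 62.5% to 73.1% on the other 7. The lowest level at which any probe was well above background was −1.44 on that array and between −6.69 and −4.81 on the others, so a dim probe sits higher on it by scaling alone. Over 10567 probes that were above background on no array, the median difference between deficient-labelled and wild-type arrays was 2.40 on the log2 scale in LSK and 0.78 in GMP. Averaged over LSK and GMP, that median was 1.58. The probe for Ackr1 itself did not separate the genotypes: its level was −0.66 and −1.05 in wild-type LSK, −0.70 and −0.85 in LSK labelled deficient, −0.50 and −0.45 in GMP of wild-type mice, and −0.07 and −0.16 in GMP labelled deficient. Whether that probe lies in the deleted part is not known here, so it checks nothing, and every direction between genotypes rests on the labels. Deficient-labelled samples all lay in the first column of the only slide and wild-type samples in the second, so slide column and genotype cannot be told apart.

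The sorted populations were checked in wild-type arrays: of 12 genes that mark LSK cells, 5 were lower in GMP than in LSK, and of 12 that mark GMP cells, 5 were higher (limma, Benjamini-Hochberg adjusted p under 0.05, the threshold for a call). In deficient-labelled arrays 0 of either list passed, with medians of −1.26 and 2.95 in GMP over LSK. Genes of maturing neutrophils and of erythroid cells, which both sorts should leave out, were high in all 4 deficient-labelled arrays. The summed level of 13 measured neutrophil genes (log2, over the 75th percentile) ran from 2.05 to 3.51 in wild-type LSK and from 10.5 to 11.7 in LSK labelled deficient, and from 3.37 to 4.29 in wild-type GMP and from 10.4 to 11.8 in GMP labelled deficient. Averaged over both populations, all 13 were higher in deficient-labelled arrays, as were 9 of 11 erythroid genes. Between 7 and 10 of the 13 neutrophil genes were already well above background on the wild-type arrays. The part of such cells in any Schlafen difference between genotypes was not tested.

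Slfn4 was the only one of the 5 tested members to pass the test between genotypes, and only when LSK and GMP were averaged: it was 4.61 higher in deficient-labelled arrays on the log2 scale (SE 0.79, 95% interval 2.85 to 6.37, adjusted p = 0.0457, limma). Its level was above background on 3 of the 4 deficient-labelled arrays and on 1 of the 4 wild-type arrays, and on the remaining deficient-labelled array, the weak LSK replicate 2, the signal before scaling lay within the range of the wild-type arrays. Slfn4 passed the filter through deficient-labelled GMP alone, so its entry among the tested members depended on a group where it was high. Its averaged difference takes levels below background as they stand. Slfn2 was at its highest in wild-type GMP and at its lowest in wild-type LSK, and Slfn8 had the opposite order at its brighter probe, but neither difference passed the test. For Slfn3 and Slfn9 every 95% interval of a difference between groups included 0. In LSK alone 0 of 5 members were called by limma, where 0.165% of the 34442 features tested were called in all, and in GMP alone 0 of 5, where 0.105% were. Averaged, 1 of 5 was called, against 0.441% of all features. At an unadjusted p under 0.05 it was 1 of 5, Slfn4, in LSK, in GMP and on average, against 8.81%, 4.58% and 11.7% of features. With so few members these counts describe the genes and not the family.

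The genes lie in 1 cluster on chromosome 11. In the RefSeq table the Schlafen genes from the first member to the last follow the order Slfn5, Slfn9, Slfn8, Slfn10-ps, Slfn2, Slfn1, Slfn4 and Slfn3. Pseudogenes, long non-coding RNAs and a microRNA lie between some of them. Schlafen genes farther from the members were not looked for there. Promoter windows from RefSeq (GRCm38.p6), running from 250 bases before each start site to 50 after it, were matched for all 7 members, with 2 windows for Slfn8. They are shown for Slfn4 and Slfn1, whose levels stood higher on deficient-labelled arrays, with the limits on these dim probes given below. They are also shown for Slfn2, the member next to Slfn1 in that order, and for Slfn8 and Slfn9, the long members, whose windows are alike. Each is printed 5′ to 3′ on the strand of its gene, and capitals mark the motif matches described after them. Slfn4 is read from the plus strand at chr11:83174936-83175235, Slfn1 from the plus strand at chr11:83116570-83116869, Slfn2 from the plus strand at chr11:83064862-83065161, Slfn8 from the minus strand at chr11:83020761-83021060 and Slfn9 from the minus strand at chr11:82991781-82992080.
Slfn4: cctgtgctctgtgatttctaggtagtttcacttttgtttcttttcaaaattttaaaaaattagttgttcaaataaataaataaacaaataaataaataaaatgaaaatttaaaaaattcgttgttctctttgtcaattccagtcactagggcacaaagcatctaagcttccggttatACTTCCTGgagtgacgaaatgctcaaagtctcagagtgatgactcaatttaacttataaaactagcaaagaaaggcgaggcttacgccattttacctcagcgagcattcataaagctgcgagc
Slfn1: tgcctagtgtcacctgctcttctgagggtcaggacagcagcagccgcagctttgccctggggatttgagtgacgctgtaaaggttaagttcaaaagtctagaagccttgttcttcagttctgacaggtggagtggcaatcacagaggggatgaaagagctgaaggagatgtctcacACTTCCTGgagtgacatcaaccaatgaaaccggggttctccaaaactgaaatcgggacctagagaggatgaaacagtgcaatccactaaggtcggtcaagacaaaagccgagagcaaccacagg
Slfn2: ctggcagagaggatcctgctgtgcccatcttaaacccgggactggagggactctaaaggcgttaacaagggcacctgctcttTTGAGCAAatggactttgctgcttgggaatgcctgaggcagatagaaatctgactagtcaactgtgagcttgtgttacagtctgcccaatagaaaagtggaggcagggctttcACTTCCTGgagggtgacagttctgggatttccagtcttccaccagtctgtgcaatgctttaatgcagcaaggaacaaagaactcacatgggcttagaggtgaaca
Slfn8: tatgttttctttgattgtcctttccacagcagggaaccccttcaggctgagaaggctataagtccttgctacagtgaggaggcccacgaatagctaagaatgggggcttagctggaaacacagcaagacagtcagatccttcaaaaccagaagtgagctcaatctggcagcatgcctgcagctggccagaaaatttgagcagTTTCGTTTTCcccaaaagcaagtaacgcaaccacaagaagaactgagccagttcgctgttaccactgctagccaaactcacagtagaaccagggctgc
Slfn9: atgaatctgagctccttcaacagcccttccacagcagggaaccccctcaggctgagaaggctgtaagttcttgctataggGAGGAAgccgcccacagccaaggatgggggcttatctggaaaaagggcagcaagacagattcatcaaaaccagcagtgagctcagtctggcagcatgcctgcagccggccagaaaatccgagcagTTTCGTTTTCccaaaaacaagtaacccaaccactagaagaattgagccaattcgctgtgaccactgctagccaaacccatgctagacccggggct

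The windows could be sorted into 2 kinds by these letters. The second kind was defined after the windows had been read, so the sorting is a description only. The core of the interferon-stimulated response element, searched on both strands as TTTC, any 2 bases and TTTC again, was present in 3 of 7 members, the long genes Slfn5, Slfn8 and Slfn9, and in 3.44% of 32851 mouse promoter windows. It began 45 bases before the start in Slfn9, 48 bases before it in the Slfn8 window shown (136 in the other) and 155 bases before it in Slfn5. The letters ACTTCCTG, an ETS-type site looked for only after the windows had been read, were present in the 4 other members, Slfn1, Slfn2, Slfn3 and Slfn4, and in 3.33% of all windows. They began 73 bases before the start in Slfn4, 74 in Slfn1 and 55 in Slfn2, and Slfn3 held them on both strands, 60 and 42 bases before its start. Slfn4 and Slfn1 share the 15-base run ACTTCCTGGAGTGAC, which begins at that site. Slfn8 and Slfn9 were alike along nearly the whole window, with 241 of 284 aligned columns identical (84.9%). The STAT site TTCNNNGAA was in 0 of 7 members and in 8.3% of all windows, the PU.1 core GAGGAA in Slfn9 alone and in 28.3% of windows, and the C/EBP core TTGCNNAA in Slfn2 and Slfn3 and in 10.8% of windows. A match describes the letters and is no measure of binding, and a missing match says nothing of the factor.

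**Figure D1:**
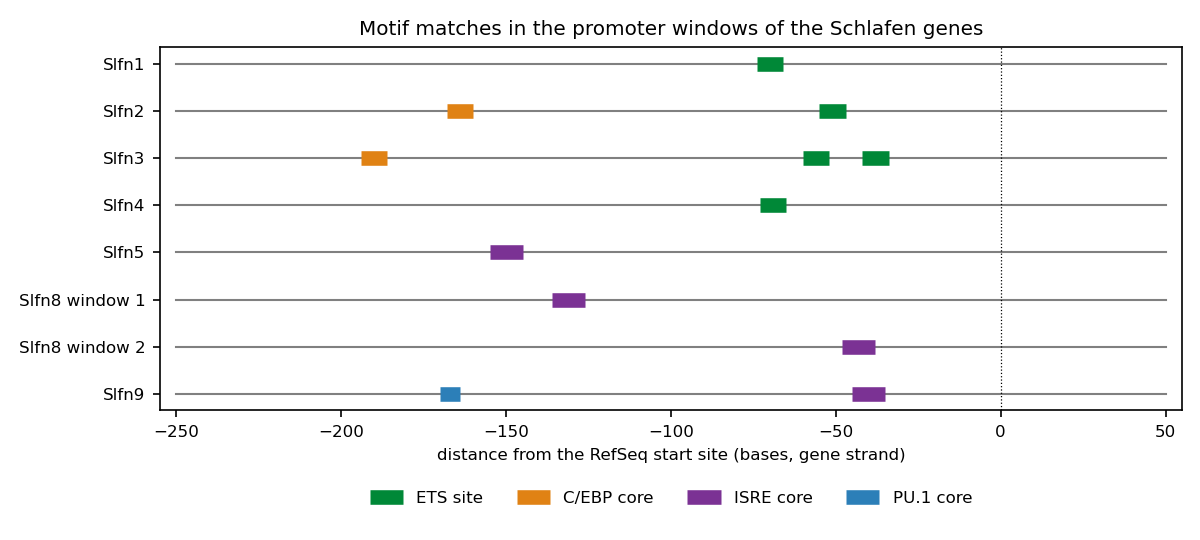
Motif matches along the RefSeq promoter windows of the 7 Schlafen genes (8 windows); the x axis is the distance in bases from the start site on the gene's own strand and coloured blocks are matches on either strand. The ISRE core lies in the windows of Slfn5, Slfn8 and Slfn9 and the ETS site in those of Slfn1, Slfn2, Slfn3 and Slfn4.

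Among the short members, Slfn1 was dim throughout. Its level was −6.59 and −7.37 in wild-type LSK, −2.56 and −2.72 in LSK labelled deficient, −7.11 and −7.62 in GMP of wild-type mice, and −3.35 and −3.57 in GMP labelled deficient. All 4 deficient-labelled arrays stood above all 4 wild-type arrays, an order that 5.15% of the probes below the filter also had. The probe was well above background on only 2 arrays, replicate 1 of LSK and replicate 2 of GMP labelled deficient, with processed signals of 47.5 and 39.7 there and of 2.57 to 4.67 on the wild-type arrays. On the weak deficient-labelled LSK replicate 2 its signal was 3.74, close to those of the wild-type arrays, and its level of −2.72 lay below that array's lowest measured level of −1.44. With 1 of 2 deficient-labelled arrays above background in each population and 0 of 4 wild-type arrays, no fold is given. In a fit over all probes with no filter the average difference was 4.12 (SE 0.52, adjusted p = 0.0251, limma). In LSK and GMP singly the same fit gave adjusted p-values of 0.159 and 0.338. The fit takes the unmeasured level on the weak array as it stands, and with levels raised to that array's floor all 8 values of Slfn1 were −1.44.

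Slfn2, the quiescence gene, was well above background on all 8 arrays. Its level was −1.83 and −0.98 in wild-type LSK, −0.08 and 0.05 in LSK labelled deficient, 1.35 and 1.86 in GMP of wild-type mice, and −0.95 and 1.36 in GMP labelled deficient. The wild-type populations were the farthest apart, with group means of −1.41 ± 0.60 (SD, n = 2) in LSK and 1.61 ± 0.36 (SD, n = 2) in GMP and no overlap. The means of the deficient-labelled groups lay between them and next to each other, −0.02 ± 0.09 (SD, n = 2) in LSK and 0.21 ± 1.63 (SD, n = 2) in GMP, where replicate 1 was below every other GMP array. GMP minus LSK was 3.01 in wild-type arrays (SE 0.84, 95% interval 1.14 to 4.88, adjusted p = 0.167) and 0.22 in deficient-labelled arrays (95% interval −1.65 to 2.09, adjusted p = 0.905, limma). The wild-type difference passed in 3 of 23 alternatives, among them without LSK replicate 2 and GMP replicate 1 labelled deficient together (adjusted p = 0.0394), and in none that left out a single array (adjusted p from 0.0747 to 1).

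Read by genotype, the Slfn2 differences of the populations had opposite signs. Deficient minus wild type was 1.39 in LSK (95% interval −0.48 to 3.26, adjusted p = 0.581) and −1.40 in GMP (95% interval −3.27 to 0.47, adjusted p = 0.989), with an average of −0.005. Both deficient-labelled LSK arrays lay above both wild-type LSK arrays. Replicate 2 of GMP labelled deficient, at 1.36, was level with the lower wild-type GMP array, and without replicate 1 the GMP difference was −0.245. The difference between the genotype effects was −2.79 (SE 1.18) and did not pass after adjustment over all features (adjusted p = 0.972, limma). In that comparison 0 of 5 members and 0% of features were called, and 1 member, Slfn2, and 2.42% of features had an unadjusted p under 0.05. Without GMP replicate 1 labelled deficient it was −1.64.

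**Figure D2:**
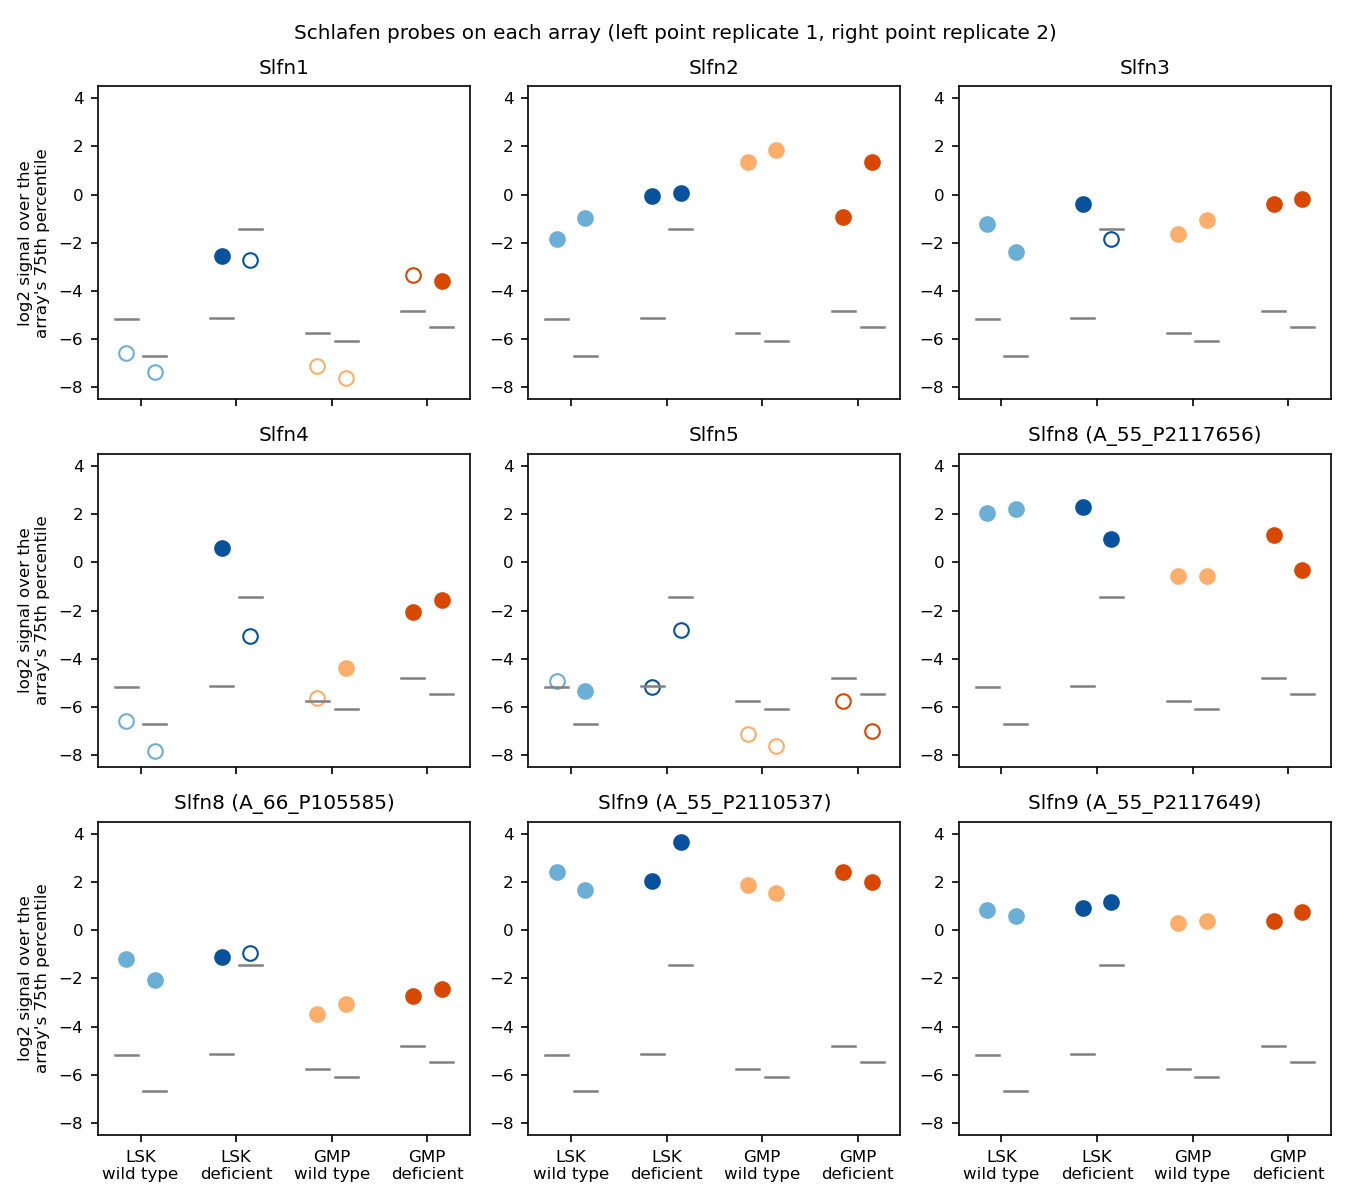
Level of each of the 9 Schlafen probes on each array (y axis, log2 signal over the array's 75th percentile) for wild-type and deficient-labelled LSK and GMP; filled points were well above background, open points were not, and grey bars mark the lowest level well above background on that array. The open point of Slfn4 on LSK replicate 2 labelled deficient lies under its bar, and Slfn2 lies between −1.83 and −0.98 in wild-type LSK and between 1.35 and 1.86 in wild-type GMP.

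Among the intermediate members, Slfn3, best known from gut epithelium and T cells, was read in all 4 groups. Its level was −1.21 and −2.39 in wild-type LSK, −0.40 and −1.83 in LSK labelled deficient, −1.62 and −1.04 in GMP of wild-type mice, and −0.39 and −0.17 in GMP labelled deficient. The order of the group means was wild-type LSK, wild-type GMP, LSK labelled deficient and GMP labelled deficient, from −1.80 ± 0.84 to −0.28 ± 0.15 (SD, n = 2), and neighbours in that order overlapped except the last pair, LSK and GMP labelled deficient. It was well above background on 7 of 8 arrays, the exception being LSK replicate 2 labelled deficient. Deficient minus wild type was 0.69 in LSK (95% interval −0.999 to 2.37) and 1.05 in GMP (95% interval −0.63 to 2.74), with adjusted p-values of 0.696 and 0.989 (limma).

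Slfn4, the myeloid member, spanned 8.43 log2 units over the 8 arrays. Its level was −6.59 and −7.83 in wild-type LSK, where neither array was above background. It was 0.61 and −3.04 in LSK labelled deficient, and only the first of these was above background. In GMP it was −5.64 and −4.40 in wild-type arrays, of which the second was above background, and −2.04 and −1.54 in deficient-labelled arrays, both above background. Its processed signal was 427.3 on LSK replicate 1 labelled deficient and 2.99 on replicate 2, close to the 2.92 and 3.39 of the wild-type LSK arrays. The level on that weak array stands above the wild-type values by its scaling, and it lies below that array's own lowest measured level. Above background stood 1 deficient-labelled array in LSK, and in GMP 2 arrays whose processed signals were 47.8 and 162.1 against 7.11 and 28.4 in wild-type GMP.

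The group means of Slfn4 followed the order wild-type LSK (−7.21 ± 0.87), wild-type GMP (−5.02 ± 0.88), GMP labelled deficient (−1.79 ± 0.35) and LSK labelled deficient (−1.22 ± 2.58, SD, n = 2), and the last 2 overlapped. In LSK the difference between genotypes was 5.99 (SE 1.11, 95% interval 3.50 to 8.48, adjusted p = 0.107). In GMP it was 3.23 (SE 1.11, 95% interval 0.74 to 5.71, adjusted p = 0.897, limma). Neither passed alone, and the difference between them, −2.76, had an adjusted p of 0.972. The LSK size depended on the array: it was 4.17 without replicate 1 labelled deficient (adjusted p = 0.0439), where the level of the weak array alone stood for the group, and 7.82 without the weak replicate 2 (adjusted p = 0.0877). It was 3.81 under quantile normalization, 3.16 after normexp and 1.02 with levels raised to the weak array's floor, and no fold is given. The GMP difference ran from 0, at that floor, to 3.85 over 25 alternatives. All 4 deficient-labelled arrays stood above all 4 wild-type arrays in level, as they did for 2.99% of features, but at that floor only LSK replicate 1 labelled deficient stood apart, and the other arrays of both genotypes had the same value, −1.44. GMP minus LSK was 2.19 in wild-type arrays (adjusted p = 0.746) and −0.58 in deficient-labelled arrays (adjusted p = 0.807).

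The averaged call lay close to its threshold. It was lost without wild-type LSK replicate 1 (adjusted p = 0.11) or 2 (0.226), LSK replicate 1 labelled deficient (0.0514), wild-type GMP replicate 1 (0.0971), or GMP replicate 1 (0.217) or 2 (0.104) labelled deficient, and it held without the weak LSK replicate 2 labelled deficient (5.52, adjusted p = 0.0205) and without wild-type GMP replicate 2 (adjusted p = 0.0493). It was also lost under quantile normalization (3.24, adjusted p = 0.57), median scaling (4.18, 0.37), no filter on dim probes (0.144), a filter of 1 array above background (0.0879), array weights (0.0912), the authors' table (0.0572), without LSK replicate 2 and GMP replicate 1 labelled deficient together (0.0583), and with every level raised to the weak array's floor, where the difference was 0.51 (0.766), which makes 14 of 24 alternatives. It held after normexp background correction at a size of 2.30 (adjusted p = 0.0274).

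**Figure D3:**
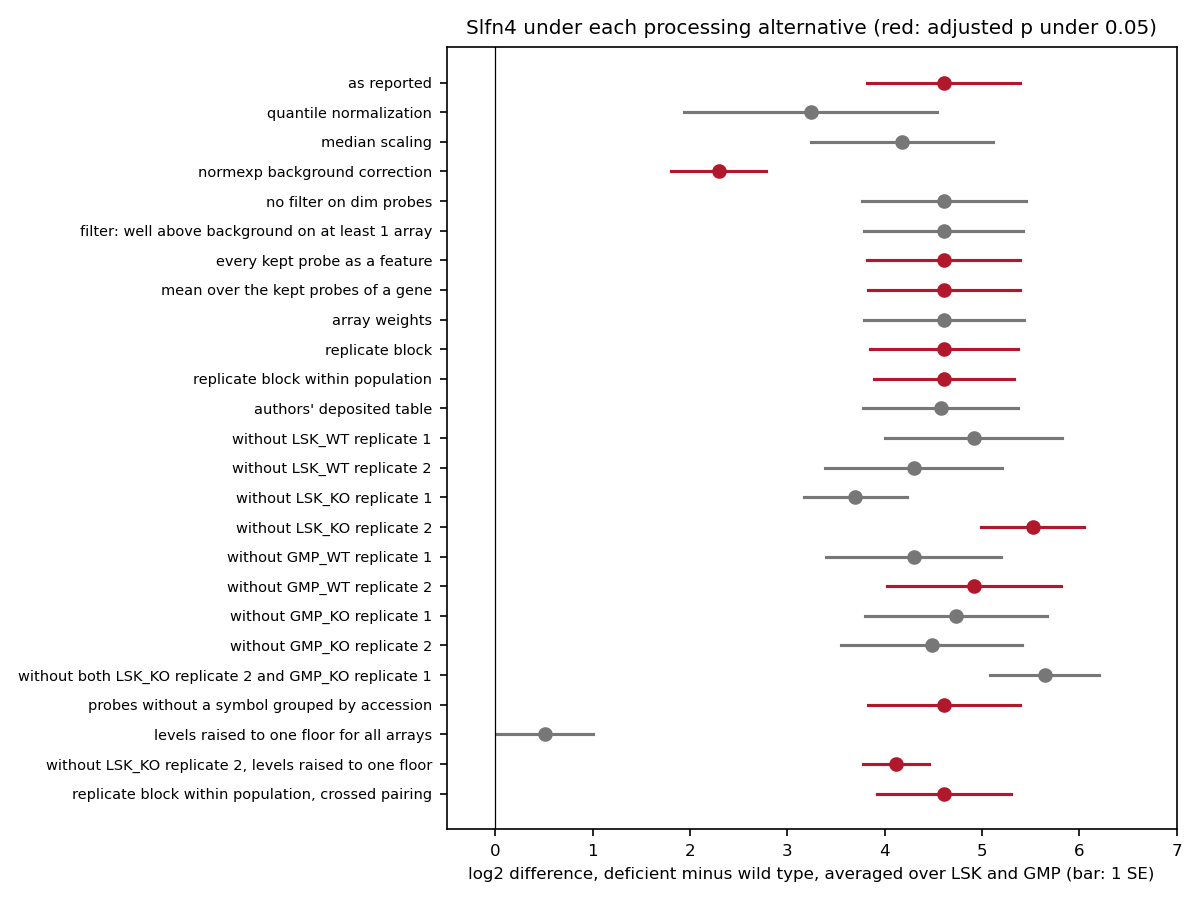
Slfn4, deficient minus wild type averaged over LSK and GMP, under the reported processing and 24 alternatives (x axis, log2 difference; bar, 1 SE; red, adjusted p under 0.05); LSK_WT, LSK_KO, GMP_WT and GMP_KO are the wild-type and deficient-labelled groups. All values lie above 0, from 0.51 to 5.65, and 10 of the 24 alternatives keep the call.

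The neutrophil and erythroid marker genes also separated the genotypes. The summed neutrophil level on the 4 deficient-labelled arrays was at least 10.4 and on the wild-type arrays at most 4.29, without overlap, and the erythroid sum was at least 10.6 against at most 6.64. Among the deficient-labelled arrays, GMP replicate 1 had the highest neutrophil sum, 11.8, and a Slfn4 level of −2.04. LSK replicate 1 had the highest Slfn4 level, 0.61, and a neutrophil sum of 10.5. On LSK replicate 2 Slfn4 was not above background. The part of such cells in the Slfn4 difference was not tested. Monocyte and macrophage genes gave sums of 3.36 to 3.78 in wild-type LSK and 4.29 to 4.85 in LSK labelled deficient, and of 7.72 to 7.95 and 7.46 to 8.93 in GMP, and 0 of the 9 tested were called between genotypes in LSK, in GMP or on average by limma (2, 0 and 2 at an unadjusted p under 0.05). Of B lineage genes 3 of 8 were higher in the averaged comparison, and of T and NK cell genes 0 of 8.

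**Figure D4:**
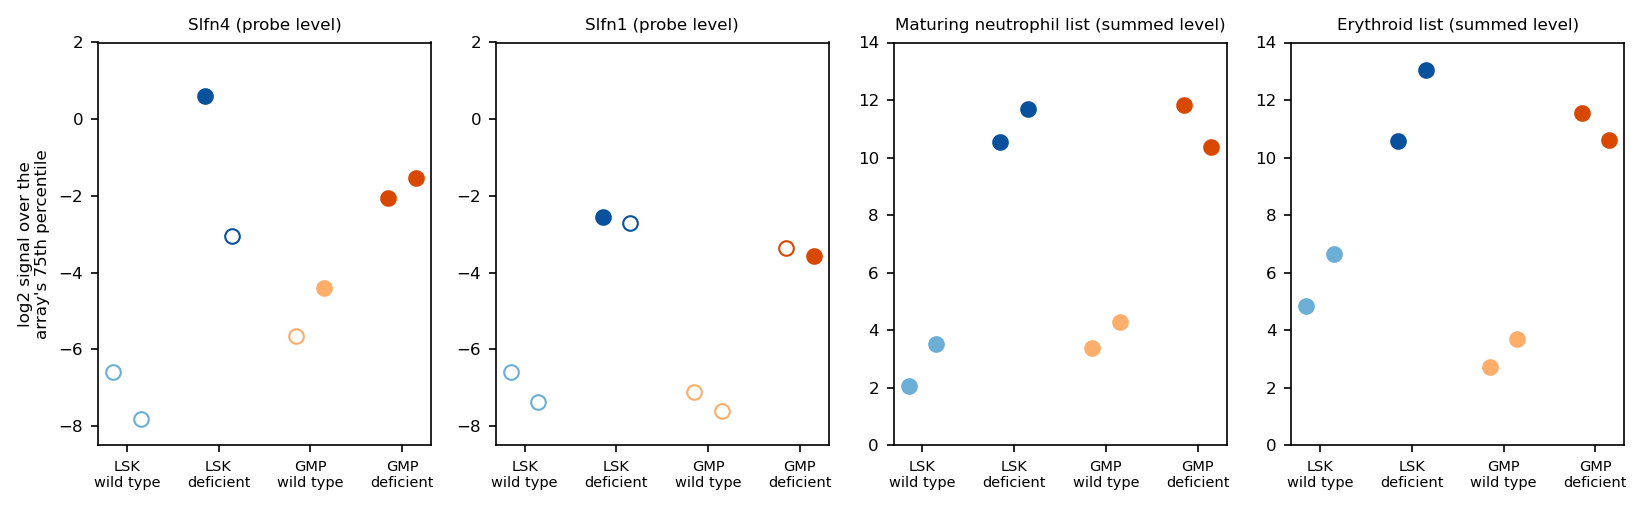
Levels of the Slfn4 and Slfn1 probes (left panels) and summed levels of the maturing neutrophil and erythroid lists (right panels) on each array, all in log2 over the array's 75th percentile; open points were not well above background. The deficient-labelled arrays stand above the wild-type arrays in all 4 panels; the open points of LSK replicate 2 labelled deficient, at −3.04 and −2.72, lie below that array's lowest level above background, −1.44.

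Among the long members, Slfn5, a nuclear Schlafen, was above background on 1 array only, wild-type LSK replicate 2. Its level was −4.94 and −5.33 in wild-type LSK and −7.11 and −7.62 in wild-type GMP, without overlap. Both of these GMP values were the lowest level of their array. In a fit with no filter the difference between the wild-type populations had an adjusted p of 0.995 (−2.23, SE 0.95, GMP minus LSK, limma). That difference rests mostly on unmeasured levels. The deficient-labelled values, −5.17 and −2.81 in LSK and −5.74 and −6.98 in GMP, were all below background, so no difference between genotypes could be read.

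Slfn8 was well above background on all 8 arrays at its brighter probe, A_55_P2117656. Its level there was 2.03 and 2.21 in wild-type LSK, 2.29 and 0.98 in LSK labelled deficient, −0.58 and −0.56 in GMP of wild-type mice, and 1.12 and −0.30 in GMP labelled deficient. Both LSK groups thus had higher means than both GMP groups, and the wild-type groups did not overlap. GMP minus LSK was −2.69 in wild-type arrays (SE 0.75, 95% interval −4.36 to −1.01, adjusted p = 0.171, limma) and −1.23 in deficient-labelled arrays (95% interval −2.90 to 0.45, adjusted p = 0.434). The second probe, A_66_P105585, was also higher in LSK than in GMP of each genotype, though its highest mean was that of LSK labelled deficient: −1.19 and −2.06 in wild-type LSK against −3.46 and −3.06 in GMP of wild-type mice, and −1.13 and −0.94 against −2.75 and −2.45 in deficient-labelled arrays. Its differences were −1.64 (adjusted p = 0.509) and −1.57 (adjusted p = 0.285). In wild-type arrays the brighter probe passed in 3 of 23 alternatives, among them without LSK replicate 2 and GMP replicate 1 labelled deficient together (adjusted p = 0.0264), and in none that left out a single array (adjusted p from 0.0991 to 0.925).

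Between genotypes the Slfn8 probes did not give the same sign. The brighter one differed by −0.48 in LSK (95% interval −2.16 to 1.2) and 0.98 in GMP (95% interval −0.70 to 2.66), with adjusted p-values of 0.77 and 0.989, and the second by 0.59 and 0.66 (adjusted p = 0.705 and 0.97, limma). Without LSK replicate 2 labelled deficient the brighter probe's LSK difference was 0.17.

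Slfn9 was well above background on all 8 arrays at both probes. At its brighter probe, A_55_P2110537, its level was 2.40 and 1.68 in wild-type LSK, 2.04 and 3.63 in LSK labelled deficient, 1.88 and 1.55 in GMP of wild-type mice, and 2.42 and 1.97 in GMP labelled deficient. At the second probe, A_55_P2117649, levels ran from 0.29 to 1.16. The array with the highest value at both probes was the weak LSK replicate 2 labelled deficient. Deficient minus wild type was 0.80 in LSK (95% interval −0.85 to 2.45, adjusted p = 0.657) and 0.48 in GMP (95% interval −1.16 to 2.13, adjusted p = 1), and GMP minus LSK in wild-type arrays was −0.33 (95% interval −1.97 to 1.32, adjusted p = 1, limma). These intervals allow changes of over 2 log2 units in either genotype comparison. Without the weak array the LSK difference between genotypes was 0.005. Whether the probes of Slfn8 and Slfn9, close relatives in sequence, also bind each other's RNA was not tested.

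**Figure D5:**
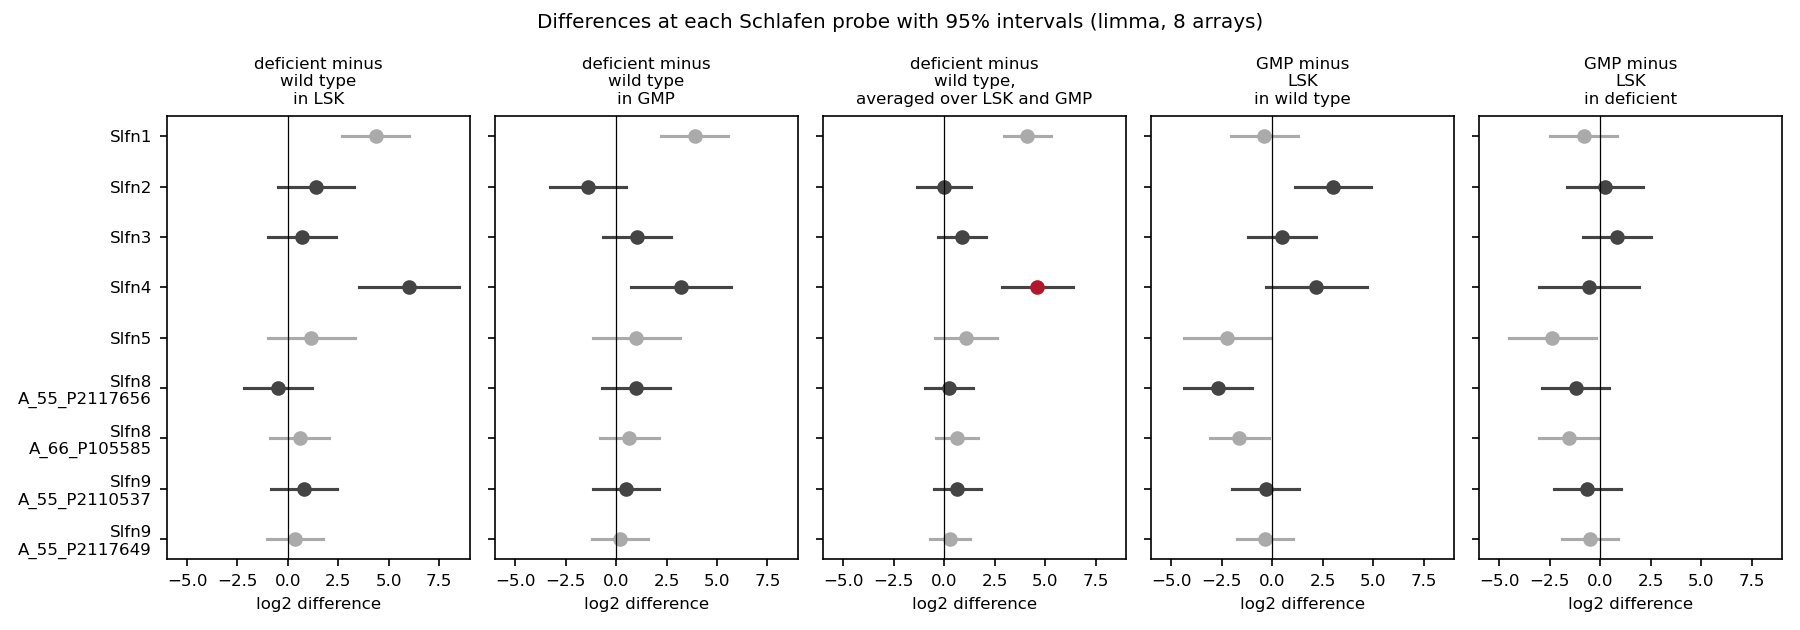
Log2 differences with 95% intervals at each Schlafen probe in 5 comparisons (limma, 8 arrays); dark points are the tested representative probes, grey points are second probes or probes below the filter, fitted with every kept probe or with no filter, and red marks the tested member with an adjusted p under 0.05. Slfn4 in the averaged genotype comparison is the red point, and in wild-type arrays Slfn2 lies at 3.01 and Slfn8 at −2.69.

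In the wild-type comparison of populations 0 of 5 members were called, against 1.51% of features, and 2 of 5 had an unadjusted p under 0.05, Slfn2 and Slfn8, against 7.87% of features. Groups did not overlap for 3 of 5 members, 2 higher in GMP (Slfn2 and Slfn4) and 1 lower (Slfn8), where 25.3% and 20.5% of features did so. For Slfn4 only 1 wild-type array, GMP replicate 2, was above background. With levels raised to the weak array's floor, all wild-type values of Slfn4 were −1.44. In deficient-labelled arrays 0 of 5 were called and 0% of all features, and at an unadjusted p under 0.05 it was 0 of 5 and 16.3%. Between genotypes, deficient-labelled arrays lay above wild-type ones without overlap for 2 of 5 members in LSK (Slfn2, and Slfn4 with the limit given above), against 17.9% of features. The second probes of Slfn8 and Slfn9 also lay higher without overlap in LSK, though their brighter probes overlapped. On LSK replicate 2 labelled deficient that Slfn8 probe was not well above background. In GMP deficient-labelled arrays lay above wild-type ones for 4 of 5 (Slfn3, Slfn4, Slfn8 and Slfn9), against 20.4% of features, and 0 were called. Slfn4 adds no support to that count, as it passed the filter through deficient-labelled GMP alone. For Slfn9 this held at its brighter probe only, as its second probe overlapped. The median difference of the tested members was 0.80 in LSK and 0.98 in GMP, where the median of all features was 0.24 and 0.17. The LSK median was the value of Slfn9, which ran from 0.005 to 1.595 with 1 array left out. It was lowest without the weak LSK replicate 2 labelled deficient. The GMP median was the value of Slfn8, which ran from 0.27 to 1.69. The population and genotype comparisons share arrays, so these counts are not independent of each other.

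Across the 8 arrays, which differ in strength as well as in group, Slfn2 and Slfn8 ran against each other (Pearson r = −0.87 with and without the weak array), and Slfn1 and Slfn4 together (r = 0.86, or 0.90 over the 7 stronger arrays). Slfn1 was above background on only 2 of the 8 arrays and Slfn4 on 4, so their r includes unmeasured levels. On wild-type LSK replicate 1 both had the array's lowest level, −6.59. The 2 probes of Slfn8 had r = 0.75 and those of Slfn9 r = 0.68, the latter 0.29 without the weak array. The named genes whose levels followed Slfn2 most closely were Dram1 (r = 0.98), Ifi30 (0.97) and Orc1 (0.96). For Slfn8 they were Ddx58, which encodes the RNA sensor RIG-I (r = 0.995), Fstl1 (0.993) and the cytokine gene Il18 (0.991). For Slfn3 they were Wdr76 (0.97), Anp32e (0.96) and Gm14305 (0.93), and for Slfn9 Synrg (0.99), Spdef (0.99) and F10 (0.989). These are the highest values among many features over 8 arrays and are given as a description.

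Interferon-stimulated genes, the group with which Schlafen genes are usually listed, were lower in GMP than in LSK of wild-type mice for 4 of 32 measured, by limma, and 0 were higher. They were Ifi44 (−5.36, adjusted p = 0.0147), Rtp4 (−5.85, 0.0302), Oas2 (−4.64, 0.0331) and Ifit3 (−4.56, 0.0478), and the median of the 32 was −1.47 against −0.04 for all features. Slfn8, at −2.69, had the same sign, and Slfn2, at 3.01, the opposite one. Between genotypes 0 of the 32 passed in LSK (3 at an unadjusted p under 0.05; median −1.04, with 28 below 0) and 0 in GMP (6 unadjusted; median 0.82, with 24 above 0). Averaged, Rsad2, which encodes the antiviral enzyme viperin, was higher in deficient-labelled arrays (3.27, SE 0.56, adjusted p = 0.0457). Among 20 genes of interferon and JAK-STAT signalling, 0 were called by limma in any comparison (0 to 4 at an unadjusted p under 0.05). Their median was −0.98 in LSK and 0.13 in GMP between genotypes, and the gene of smallest p in wild-type arrays was Irf8, a regulator of monocyte fate, at 3.98 in GMP over LSK (adjusted p = 0.0948).

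Genes of tRNA cleavage, splicing and modification, the process in which Slfn2 acts, were called for 0 of 12 in each comparison by limma (0 to 2 at an unadjusted p under 0.05). The lowest p between genotypes in LSK was that of Ang, the ribonuclease that cuts tRNA under stress, at 3.86 (SE 1.29, adjusted p = 0.525, limma). Of 17 genes linked to quiescence, 2 were lower in wild-type GMP than LSK, Cdkn1c, a cell-cycle inhibitor (−4.41, adjusted p = 0.0162), and Bach2 (−4.28, adjusted p = 0.0436), where Slfn2 had the opposite sign. Between genotypes 0 of the 17 were called in LSK, in GMP or on average by limma (1, 1 and 2 at an unadjusted p under 0.05), and the median was −0.51 in LSK and 0.55 in GMP.

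Of the 3 genes directly before Slfn5 and the 3 directly after Slfn3, Unc45b and AI662270 had a probe. Unc45b, a muscle myosin chaperone gene, differed by −0.39 in LSK and −0.08 in GMP between genotypes, and the long non-coding RNA AI662270 by 1.02 and 0.80, with adjusted p-values of 0.655 or above (limma). Slfn14, a Schlafen gene outside the members, had the same pattern as Slfn1: −6.59 and −7.92 in wild-type LSK, −2.54 and −2.77 in LSK labelled deficient, −5.96 and −6.97 in GMP of wild-type mice, and −3.30 and −3.50 in GMP labelled deficient. It passed in the averaged comparison (3.83, SE 0.51, adjusted p = 0.012, limma), with 3 of 4 deficient-labelled arrays and 0 of 4 wild-type arrays above background. Slfn14 passed the filter through deficient-labelled GMP alone. On the weak LSK replicate 2 labelled deficient its signal, 3.61, lay within the 2.92 to 5.72 of the wild-type arrays. Its level there lay below that array's lowest measured level, and at that floor all 8 values of Slfn14 were −1.44.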

How the data were processed

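Per the labels, total RNA of sorted cells was extracted with Trizol, amplified from low input and labelled with Cy3. Per the file headers, Agilent Feature Extraction 10.7.3.1 read the scans and the design was annotated on mm9; the processed signal deposited by the authors is a background-corrected intensity on a linear scale. The authors also deposited a table of log2 values, which matched the level used here after each probe's median over the arrays was taken off (r between 0.999691 and 0.999965; column medians 0.12, −0.26, 0.04, 1.24, −0.13, −0.14, 0.32 and −0.11 in the order wild-type LSK, deficient LSK, wild-type GMP, deficient GMP). At that precision its scale, centring and direction are known, and it served as an alternative.

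Here, spots of a probe were averaged without control spots and outliers. The level was log2 processed signal minus the array's 75th percentile. Probes were kept where some group had them well above background on each of its 2 arrays (39098 of 55681). Each named gene was represented by its kept probe of highest mean, and unnamed probes stood alone, which gave 34442 features, 15856 of them named. Names came from the RefSeq gene table of GRCm38.p6 by accession (26582 probes matched), used also for gene order, and promoters from the RefSeq promoter table. A single model of 4 group means over 8 arrays was fitted in R 4.3.3 with limma 3.58.1 (lmFit, contrasts.fit, eBayes; 4 residual and 5.618 prior degrees of freedom), and a Benjamini-Hochberg adjusted p under 0.05 made a call. The fit was also run on simulated data, drawn as independent normal values around a mean per probe. These held no weak array and no background floor, so that run does not cover those features of the data. Where a probe was above background on no array of the dimmer group and not on all of the brighter, no fold is given, since the brighter mean is then itself not fully measured. No spot was saturated. The number of arrays limits the precision.

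Named genes were every member at each probe and called genes of 4 lists (otherwise those of smallest p, by value only). For each member above background on at least 6 arrays, the 3 named features of highest correlation were added. The genes beside the stretch from Slfn5 to Slfn3 were added as well. Members and lists were chosen with earlier results of these data known. Alternatives covered normalization, scaling, normexp on the median signal and background (offset 50; no mean signal column was used here), filters, probe choice, array weights, replicate blocks, the authors' table and left-out arrays. A further 4 (accession grouping of unnamed probes, 1 floor for all arrays, the same without LSK replicate 2 labelled deficient, and crossed pairing) were chosen after seeing the data, as were the ETS motif and the description of Slfn14. Tools were the data.table package (version 1.17.8), Python 3.11.15, matplotlib 3.10.9 and biopython 1.88.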

Additional observations from a re-analysis of the deposited data

Results flagged for a closer look

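Slfn1 was left out of the test by the filter, yet 2 of the 4 deficient-labelled arrays, and 0 of the 4 wild-type arrays, had its probe well above background. Its levels and signals are given above.

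Slfn2 lay above the wild-type mean on both deficient-labelled LSK arrays and below it on both deficient-labelled GMP arrays. The difference between the genotype effects, GMP minus LSK, was −2.79 on the log2 scale, with an unadjusted p of 0.0405 and an adjusted p of 0.972 over all features (limma, 8 arrays).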

How the results depend on the processing

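The reported counts of called members are 0 of 5 in each comparison except the averaged genotype comparison, with 1 (Slfn4). In LSK the count was 1 under the replicate block within population and under the crossed pairing, chosen after seeing the data, and 0 to 1 with 1 array left out. In the averaged comparison it was 0 under quantile normalization, median scaling, array weights, the authors' table, 1 floor for all arrays and without LSK replicate 2 and GMP replicate 1 labelled deficient together, and 0 to 1 with 1 array left out; with no filter it was 1, but that gene was Slfn1, and with a filter of 1 array above background Slfn4 was not called (adjusted p = 0.0879). Between populations in wild type it was 2 (Slfn2 and Slfn8) under array weights, with only the 4 arrays compared and without both named arrays. The labels do not say that replicate numbers pair arrays (r of same-numbered deviations −0.29 in LSK and 0.23 in GMP), and the replicate block left the averaged Slfn4 call in place (adjusted p = 0.0262).

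Signs turned only in differences that were not called as reported, and the cause was not tested. In LSK the Slfn8 difference between genotypes became 0.055 with the mean of its probes and 0.17 without LSK replicate 2 labelled deficient, also with 1 floor. Averaged, Slfn2 became 0.11 under quantile normalization and 0.009 under normexp, and Slfn8 −0.19 under median scaling and −0.15 under normexp. In the difference of the genotype effects Slfn3 became −0.30 and Slfn9 0.33 under normexp, and −0.35 and 0.48 without that LSK array at 1 floor. Between populations Slfn9 became 0.001 in wild type under median scaling and 0.15 in deficient-labelled arrays without that array at 1 floor, and Slfn4 in deficient-labelled arrays 0.93 under quantile normalization and 0.032 under median scaling. With arrays left out, differences ran from −0.029 to 1.40 for Slfn3 and −1.13 to 0.17 for Slfn8 in LSK, from −0.58 to 0.57 for Slfn2 and −0.11 to 0.60 for Slfn8 averaged, from −0.35 to 1.08 for Slfn3 and −1.11 to 0.48 for Slfn9 in the difference of effects, from −0.12 to 1.06 for Slfn3 and −0.69 to 0.032 for Slfn9 between wild-type populations, and from −0.94 to 1.44 for Slfn2, −2.40 to 1.25 for Slfn4 and −1.44 to 0.15 for Slfn9 between deficient-labelled ones. Signal over background on the weak LSK array limits every dim probe, Slfn1, Slfn4 and Slfn5 most of all. The count of all features called ran from 0 to 2976 in LSK (57 as reported), 0 to 199 in GMP (36), 26 to 988 averaged (152), 0 to 25 in the difference of effects (0), 2 to 2052 between wild-type populations (520) and 0 to 4615 between deficient-labelled ones (0).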
